A study of Homo sapiens with 6 samples.

Results

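Mitochondrial ribosomal protein genes are the nuclear genes that encode the protein subunits of the ribosome inside mitochondria. They were taken as every gene with a symbol of the MRPL or MRPS form (letters, a number and an optional A to C) that was the only gene named for its probe set in the array's annotation. A probe set is the group of array probes that together measure one transcript cluster. This gave 73 genes on 74 probe sets, of 18404 genes on 32321 probe sets in all, and the probe set with the highest mean stood for a gene that had several.

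The mitochondrial ribosome translates the few proteins encoded by mitochondrial DNA, which are core subunits of the respiratory chain and of ATP synthase. Its ribosomal RNAs are transcribed in the mitochondrion, whereas its proteins are made in the cytoplasm, imported and assembled into a small subunit, which decodes the messenger RNA, and a large subunit, which forms the peptide bond. Many of the proteins descend from the bacterial ribosome, and the rest are found only in mitochondrial ribosomes. In tumour cells these genes are known mostly as part of the supply of respiratory capacity for growth, and NRF1, GABPA (an ETS family factor), YY1 and MYC are described regulators of nuclear genes for mitochondria.

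The arrays measured total RNA from H226 cells, an established human lung squamous cell carcinoma line that carries a doxycycline-inducible short hairpin RNA (shRNA) against p63, the p53 family transcription factor of squamous epithelium. In the shp63 ON group the hairpin was switched on with 1 µg/mL doxycycline for 48 h. The Nutlin-3 group had the hairpin off (shp63 OFF) and received 10 µM Nutlin-3, an inhibitor of MDM2 that stabilises p53, for 12 h. The control group had the hairpin off under normal growth, and each group had 2 of the 6 arrays. The treatment label of the shp63 ON arrays reads untreated, and doxycycline comes from the treatment text. Doxycycline, a tetracycline that is itself known to inhibit protein synthesis on mitochondrial ribosomes, was given to the shp63 ON cells only, and with no array of doxycycline without the hairpin the drug, its longer duration, the hairpin and the loss of p63 cannot be told apart. The level of the targeted gene was not analysed here, so the labels were not checked through it. Whether the cells are 1 clone is not given in the sources used here.

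Values are the deposited log2 intensities, so a difference of 1 is a doubling, and the number of arrays limits the precision. Array medians lay between 6.57 and 6.70, and replicate arrays correlated at r = 0.9971 to 0.998 over all genes against 0.9751 to 0.9886 between groups, a description across genes, which are not independent replicates. Of 12 squamous and basal epithelial markers 10 were measured, with a median level of 9.92 against 7.30 over all genes. Of these 10, 6 fell and 1 rose in shp63 ON arrays, against 16.5% and 19.7% of all genes. With Nutlin-3 4 of them rose, against 9.64% of all genes. The median level was 8.08 for mesothelial, 6.48 for fibroblast, 5.71 for leukocyte and 5.43 for endothelial markers. Levels ran from 4.32 to 7.77 over 4 leukocyte and from 5.03 to 8.58 over 4 endothelial markers, so not all were low. They reached 8.28 among 5 fibroblast markers and 9.94 among 4 mesothelial markers, close to the squamous median. In shp63 ON arrays 2 of the 4 mesothelial markers rose and 1 fell. There 1 of 5 fibroblast, 1 of 4 leukocyte and 2 of 4 endothelial markers rose, and 0 fell. With Nutlin-3 1 mesothelial and 1 leukocyte marker rose and 1 endothelial marker fell. The defining markers PTPRC (4.24 to 4.48) and PECAM1 (4.84 to 5.22) lay near the low end of the arrays on all 6. Tests were limma's moderated test in 1 fit over all 3 groups and all 18404 genes, with Benjamini-Hochberg adjustment and a call at an adjusted p under 0.05. Nothing in the labels tells whether the replicates are separate cultures, and p-values measure only the spread between these arrays, which may be technical. A permutation of 2 arrays against 2 cannot give an exact two-sided p under 0.333.

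In shp63 ON cells the mitochondrial ribosomal protein genes were mostly slightly lower than in control cells. Of the 73 genes, 21 fell, 4 rose and 48 did not pass, and the falls were small: MRPL17 alone fell by at least 1.5-fold. The members' median log2 fold change was -0.12, against 0.04 over all genes, with 56 members below 0 and 17 above. Of the members 28.8% fell and 5.48% rose, against 16.5% and 19.7% of all genes tested, of which 36.2% were called in either direction. With the 1.5-fold minimum 4.66% of all genes fell and 1.71% rose, against 1 and 0 members. The arrays of the groups did not overlap for 45 members that were lower in shp63 ON and 9 that were higher, against backgrounds of 30.4% and 41.3% of all genes. In bulk RNA, fewer cells of a type and less RNA per cell cannot be told apart.

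The members' share of called falls was the same as among other genes from the middle of their range of level, but their median was lower. The members are well expressed, and the change in shp63 ON varied with level over the whole array. Among the 4464 other genes whose mean lay between the members' quartiles (8.07 and 9.81), 28.8% fell and 15.5% rose, with a median of -0.06. Their arrays did not overlap for 2138 of the 4464 that were lower in shp63 ON and 1352 that were higher. Among the 73 members these counts were 45 and 9, a larger share for lower and a smaller share for higher. The share of falls among all 73 members, whose levels ran from 4.60 to 11.47, equalled that of these genes. The members' share of rises was lower. In the level bin from 9 to 10, which holds 23 members, the median was -0.16 for the members and -0.07 for all 2093 genes of the bin.

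**Figure D1:**
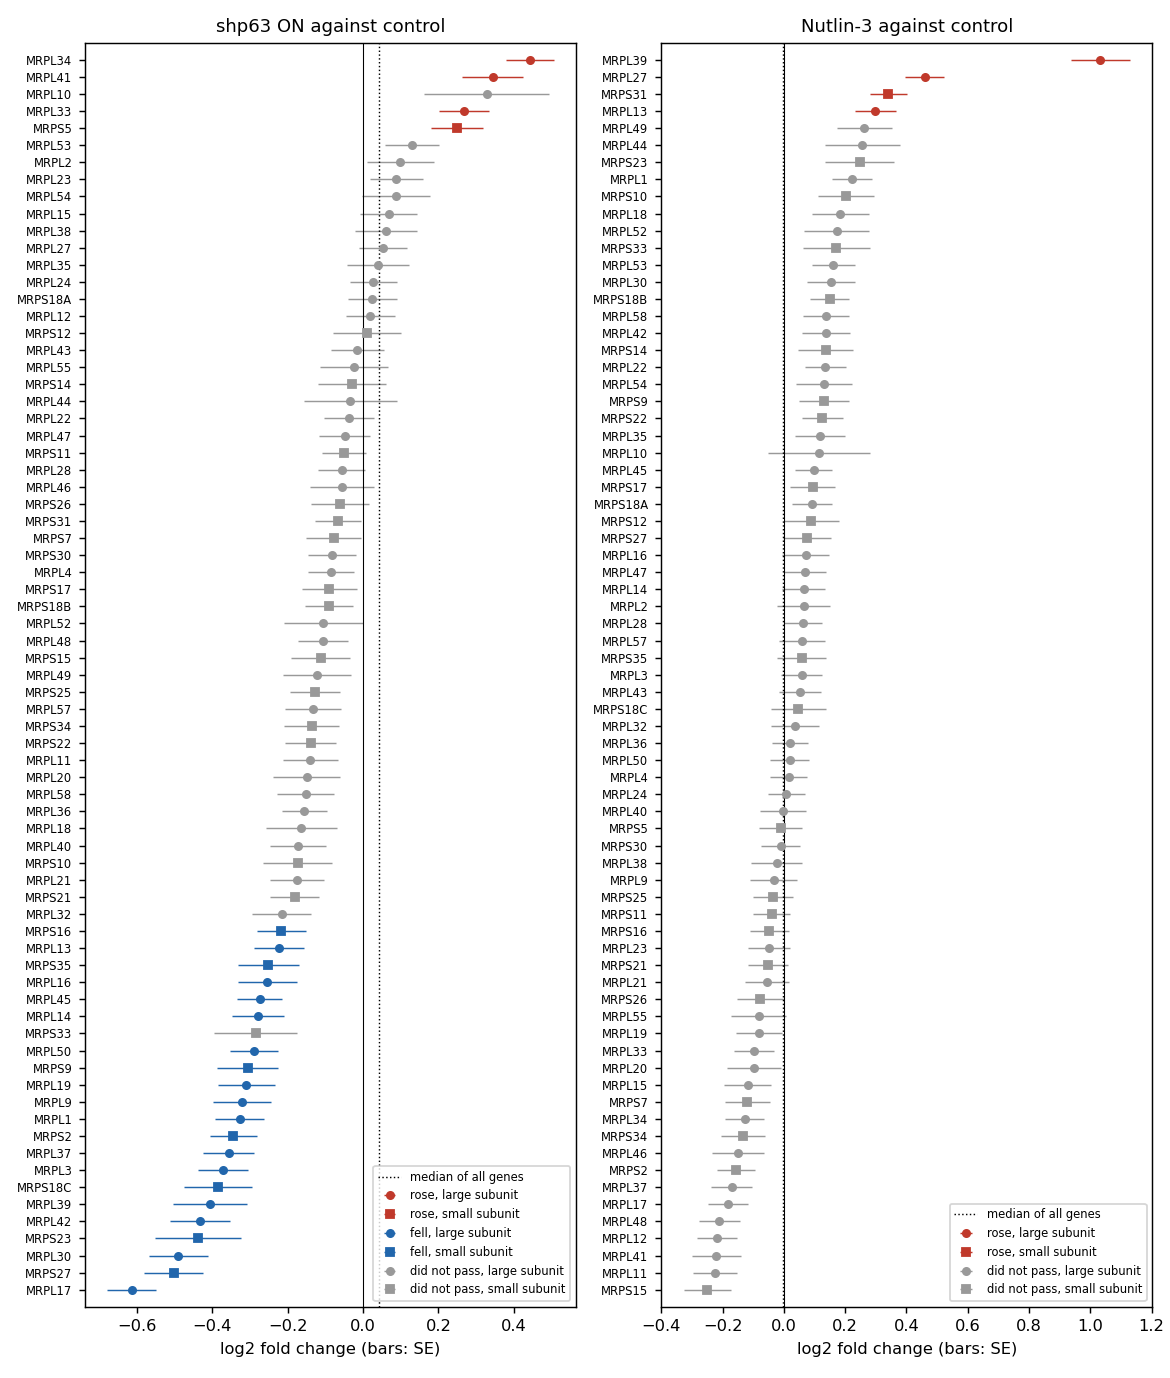
Log2 fold change (horizontal axis, bars are SE) of each of the 73 genes in shp63 ON against control (left) and in Nutlin-3 against control (right), ranked from highest at the top, with circles for the large and squares for the small subunit and the dotted line at the median of all genes. In shp63 ON 21 genes fell and 4 rose, and with Nutlin-3 4 genes rose and 0 fell.

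**Figure D2:**
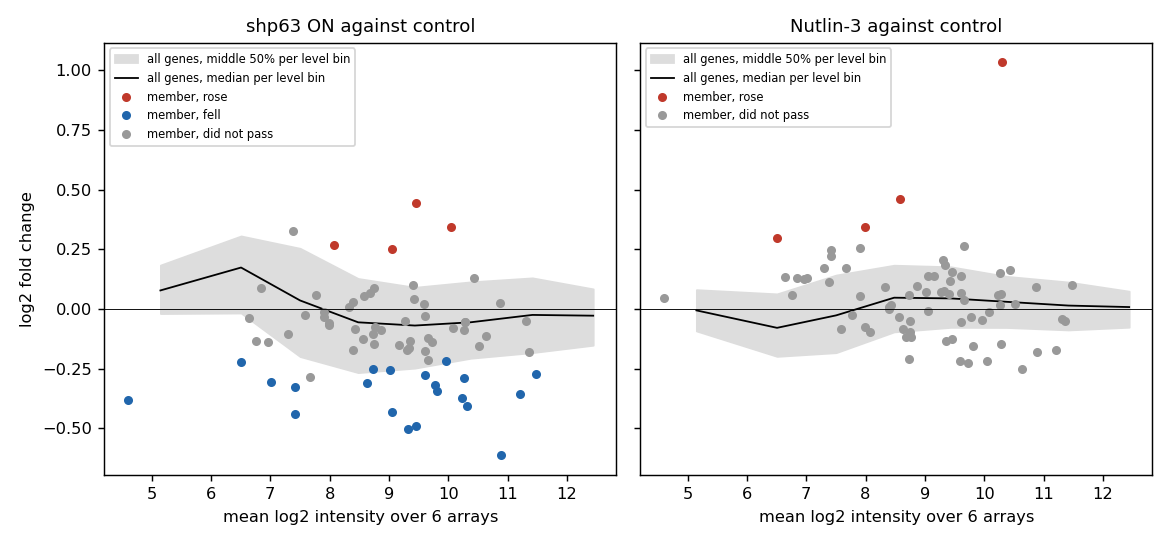
Log2 fold change against mean log2 intensity over 6 arrays for the 73 genes (points, coloured by call), with the median (line) and middle 50% (grey) of all genes in bins of level, for shp63 ON against control (left) and Nutlin-3 against control (right). The line for all genes in shp63 ON lies at 0.17 in the bin from 6 to 7 and at -0.07 in the bin from 9 to 10.

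MRPL17, the counterpart of bacterial L17 in the large subunit, showed the largest fall. Its log2 intensity was 10.50 and 10.59 on the shp63 ON arrays, 10.95 and 11.00 on the Nutlin-3 arrays, and 11.18 and 11.14 on the control arrays. Both shp63 ON arrays lay below all the others, and the Nutlin-3 arrays lay between the groups without overlap. MRPL17 fell by 0.61 in shp63 ON (SE 0.07, limma adjusted p = 0.000533), and its value with Nutlin-3 was -0.18 (adjusted p = 0.0975).

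MRPS27, a pentatricopeptide repeat protein of the small subunit that exists only in mitochondria, had 8.90 and 9.01 on the shp63 ON arrays, 9.45 and 9.62 on the Nutlin-3 arrays and 9.48 and 9.44 on the control arrays. The shp63 ON arrays were low and the other 4 overlapped. MRPS27 fell by 0.50 (SE 0.08, limma adjusted p = 0.00292). MRPL30, the counterpart of bacterial L30, read 9.12 and 9.05 on the shp63 ON arrays, 9.82 and 9.64 on the Nutlin-3 arrays and 9.55 and 9.61 on the control arrays. Again the shp63 ON arrays alone were low, and MRPL30 fell by 0.49 (SE 0.08, limma adjusted p = 0.00335).

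MRPS23, found only in mitochondrial small subunits, had 7.13 and 6.97 on the shp63 ON arrays, 7.78 and 7.69 on the Nutlin-3 arrays and 7.32 and 7.65 on the control arrays. The 2 control arrays differed by 0.33, the widest gap of any member between control replicates, but both lay above the shp63 ON arrays. MRPS23 fell by 0.44 (SE 0.11, limma adjusted p = 0.0211). MRPL42, of the mitochondria-specific part of the large subunit, had 8.79 and 8.64 on the shp63 ON arrays, 9.33 and 9.24 on the Nutlin-3 arrays and 9.09 and 9.20 on the control arrays. Its groups did not overlap and it fell by 0.43 (SE 0.08, limma adjusted p = 0.00568).

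MRPS18C, 1 of the mammalian relatives of bacterial S18, was the member with the lowest intensity. It read 4.29 and 4.36 on the shp63 ON arrays, 4.87 and 4.64 on the Nutlin-3 arrays and 4.65 and 4.77 on the control arrays. The shp63 ON arrays were lowest, and MRPS18C fell by 0.38 (SE 0.09, limma adjusted p = 0.0147). These intensities are as low as those of PTPRC and PECAM1, and with no detection value it was not shown to lie above background, so the size of the change is uncertain. MRPL3, the counterpart of bacterial L3, which lies close to the peptidyl transferase centre, had 9.90 and 10.02 on the shp63 ON arrays, 10.41 and 10.38 on the Nutlin-3 arrays and 10.34 and 10.33 on the control arrays. The other 4 arrays lay close together, and MRPL3 fell by 0.37 (SE 0.07, limma adjusted p = 0.00505).

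MRPL39 completes the 8 largest falls at -0.41 (SE 0.10, limma adjusted p = 0.0158), and its arrays are given with Nutlin-3, where it also changed. The other 13 members that fell in shp63 ON did so by 0.36 (MRPL37) to 0.22 (MRPS16) on the log2 scale. They were, by size, MRPL37, MRPS2, MRPL1, MRPL9, MRPL19, MRPS9, MRPL50, MRPL14, MRPL45, MRPL16, MRPS35, MRPL13 and MRPS16. MRPL45, which anchors the ribosome to the inner membrane, and MRPL1 and MRPL9, counterparts of bacterial proteins of the large subunit, are among them. MRPS33 had a larger difference than 6 of those that passed, at -0.28, but an adjusted p of 0.0803.

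The 4 members that rose in shp63 ON were MRPL34, MRPL41, MRPL33 and MRPS5. MRPL34, the counterpart of the small bacterial protein L34, had 9.81 and 9.78 on the shp63 ON arrays, 9.25 and 9.20 on the Nutlin-3 arrays and 9.32 and 9.38 on the control arrays. It rose by 0.44 (SE 0.06, limma adjusted p = 0.00196), and no array of the other groups came near the shp63 ON arrays. MRPL41, mitochondria-specific and also described as a partner of BCL2, had 10.44 and 10.25 on the shp63 ON arrays, 9.76 and 9.81 on the Nutlin-3 arrays and 10.05 and 9.96 on the control arrays. Its groups did not overlap, in the order Nutlin-3, control, shp63 ON, and it rose by 0.34 in shp63 ON (SE 0.08, limma adjusted p = 0.0144).

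MRPL33, the counterpart of bacterial L33, read 8.25 and 8.32 on the shp63 ON arrays, 7.91 and 7.92 on the Nutlin-3 arrays and 8.06 and 7.97 on the control arrays. MRPS5, the counterpart of bacterial S5 near the decoding path, read 9.24 and 9.21 on the shp63 ON arrays, 9.01 and 8.91 on the Nutlin-3 arrays and 8.92 and 9.02 on the control arrays. Both were highest on the shp63 ON arrays, and they rose by 0.27 and 0.25 (limma adjusted p = 0.0181 and 0.0281).

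Falls were found in both subunits and in both evolutionary classes. In the small subunit 7 of 23 members fell and 1 rose (median -0.14), and in the large subunit 14 of 50 fell and 3 rose (median -0.11). Among the 43 members with a bacterial counterpart 13 fell and 3 rose (median -0.11), and among the 30 mitochondria-specific members 8 fell and 1 rose (median -0.12). MRPS30 and MRPS18A, which sit in the large subunit in spite of their names, were counted there and did not pass. The members with the value nearest 0 were MRPS12 (0.01), the decoding-centre protein, MRPL43 (-0.01) and MRPL12 (0.02), a protein of the stalk that recruits translation factors. MRPL36, the only member with 2 probe sets, had -0.16 on the one used and -0.25 on the other, and neither passed.

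**Figure D3:**
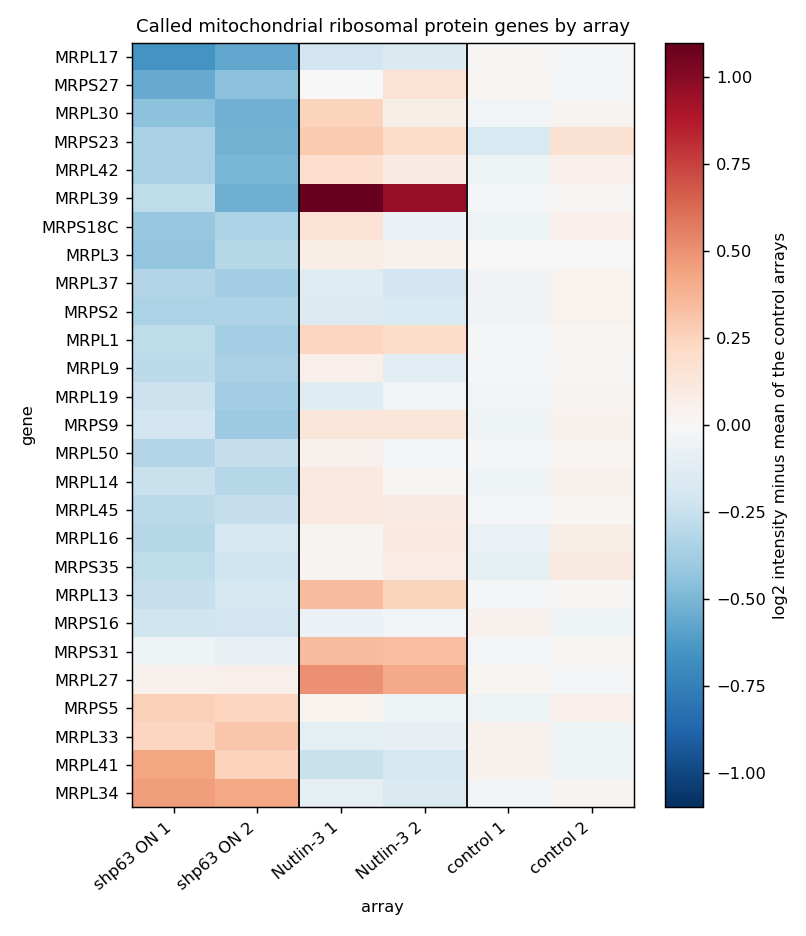
Heat map of the 27 genes called in shp63 ON or Nutlin-3 against control (rows, ordered by the change in shp63 ON) on the 6 arrays (columns: shp63 ON, Nutlin-3, control), coloured by log2 intensity minus the mean of the control arrays. Both shp63 ON arrays are below the control mean for each of the 21 genes that fell, and MRPL39 on the Nutlin-3 arrays holds the largest difference, 1.03 on average.

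Which falls passed depended on the array left out. Without the second control array the lone control array is assumed to vary like the other groups, and 6 of the 21 falls passed (MRPL17, MRPL3, MRPL30, MRPL42, MRPS2 and MRPS27). The other 15 had log2 fold changes of -0.40 to -0.15, with adjusted p between 0.0508 and 0.244, and all 21 kept their sign. MRPL39 for example had -0.40 without that array and -0.41 with it, and MRPS23 had -0.27 and -0.44. The share of all genes that fell was then 9.86%, against 8.22% of the members. Without the first control array 14 of the falls passed, without the first or the second shp63 ON array 13 and 11, and without either Nutlin-3 array 20. Of the rises, MRPL34 alone passed without the second control array. With quantile or cyclic loess normalization 16 and 18 of the 21 falls and all 4 rises passed, and the members' median was -0.06 and -0.07. With each array centred on its median 23 members fell and 4 rose, with a median of -0.14. The calls of MRPL17, MRPL3, MRPS2 and MRPL34 held in the 17 alternatives other than the 1.5-fold minimum.

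Because regulators of these genes act at the start site, the promoters of the 3 largest falls and the 3 largest rises in shp63 ON, and of MRPL39, the largest rise with Nutlin-3, are shown (RefSeq, GRCh38.p14, 250 bases before to 50 bases after the listed start, read 5′ to 3′ on the gene's strand). Capitals mark a match to 1 of 4 motifs on either strand: GCGCA, any base and GCGC for NRF1, CCGGAAG for the ETS family, AAGATGGCG for YY1 and CACGTG for the E-box bound by MYC. The windows are chr11:6683291-6683590 (minus strand) for MRPL17, chr5:72320191-72320490 (minus) for MRPS27, chr2:99180934-99181233 (plus) for MRPL30, chr19:17292323-17292622 (plus) for MRPL34, chr9:137551629-137551928 (plus) for MRPL41, chr2:27771469-27771768 (plus) for MRPL33 and chr21:25607432-25607731 (minus) for MRPL39.
MRPL17: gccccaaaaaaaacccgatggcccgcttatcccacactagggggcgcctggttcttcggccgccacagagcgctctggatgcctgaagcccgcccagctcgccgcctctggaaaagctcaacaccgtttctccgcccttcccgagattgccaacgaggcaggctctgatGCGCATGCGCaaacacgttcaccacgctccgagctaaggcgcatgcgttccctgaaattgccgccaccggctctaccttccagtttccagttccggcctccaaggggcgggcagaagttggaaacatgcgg
MRPS27: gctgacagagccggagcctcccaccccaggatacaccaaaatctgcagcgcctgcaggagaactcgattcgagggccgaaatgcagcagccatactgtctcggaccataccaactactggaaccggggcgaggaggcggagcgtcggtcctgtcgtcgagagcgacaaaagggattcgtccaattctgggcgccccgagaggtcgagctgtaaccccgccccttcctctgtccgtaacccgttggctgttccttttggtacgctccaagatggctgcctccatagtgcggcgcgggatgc
MRPL30: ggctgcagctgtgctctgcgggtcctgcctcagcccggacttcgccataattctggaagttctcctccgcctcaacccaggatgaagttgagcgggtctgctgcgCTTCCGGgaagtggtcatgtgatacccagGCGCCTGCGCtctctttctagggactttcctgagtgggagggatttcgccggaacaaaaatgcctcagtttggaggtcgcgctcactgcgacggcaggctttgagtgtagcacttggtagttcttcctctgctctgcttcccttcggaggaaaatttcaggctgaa
MRPL34: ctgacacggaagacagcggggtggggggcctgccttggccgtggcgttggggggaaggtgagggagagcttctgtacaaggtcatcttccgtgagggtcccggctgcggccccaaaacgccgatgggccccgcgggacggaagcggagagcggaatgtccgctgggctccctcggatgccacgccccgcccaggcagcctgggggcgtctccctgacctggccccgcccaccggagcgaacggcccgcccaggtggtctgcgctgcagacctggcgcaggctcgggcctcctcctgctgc
MRPL41: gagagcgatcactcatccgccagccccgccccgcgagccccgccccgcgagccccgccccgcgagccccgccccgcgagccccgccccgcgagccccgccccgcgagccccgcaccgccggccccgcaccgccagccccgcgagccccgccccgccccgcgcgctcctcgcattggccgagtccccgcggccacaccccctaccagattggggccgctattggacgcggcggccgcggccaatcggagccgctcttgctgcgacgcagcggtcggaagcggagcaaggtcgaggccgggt
MRPL33: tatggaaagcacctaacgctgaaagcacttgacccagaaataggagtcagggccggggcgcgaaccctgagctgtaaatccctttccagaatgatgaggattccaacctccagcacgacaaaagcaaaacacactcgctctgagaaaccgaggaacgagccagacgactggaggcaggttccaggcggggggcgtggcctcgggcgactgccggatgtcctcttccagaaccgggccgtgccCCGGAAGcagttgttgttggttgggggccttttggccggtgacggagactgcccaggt
MRPL39: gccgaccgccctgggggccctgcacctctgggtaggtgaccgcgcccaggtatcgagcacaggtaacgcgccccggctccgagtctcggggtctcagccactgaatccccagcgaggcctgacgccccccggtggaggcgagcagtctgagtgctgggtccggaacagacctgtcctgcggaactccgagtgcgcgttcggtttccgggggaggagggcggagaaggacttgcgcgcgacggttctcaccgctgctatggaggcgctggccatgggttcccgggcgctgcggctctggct

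The MRPL17 promoter holds an NRF1 match that begins at base -81 from the start. In MRPL30 an ETS match begins at -145 and an NRF1 match at -116, and in MRPL33 an ETS match begins at -8. The windows of MRPS27, MRPL34, MRPL41 and MRPL39 hold none of these letters, from which nothing follows about the factors. Of the 73 members 66 had a promoter in the table. An ETS match was in 42.4% of these 66, against 14.6% of the 14230 promoters of genes with a value and 10.3% of all 35116 promoters of the table. The YY1 motif was in 18.2% of the members' promoters (2.87% and 1.75% in the same backgrounds), the NRF1 motif in 12.1% (8.91% and 5.78%) and the E-box in 9.09% (8.88% and 7.26%). Within the members, an NRF1 match was in 5 of 20 that fell in shp63 ON, in 0 of 4 that rose and in 3 of 42 that did not pass, and an ETS match was in 6, 1 and 21 of them. These are descriptions, with no test, and the motifs can overlap one another.

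**Figure D4:**
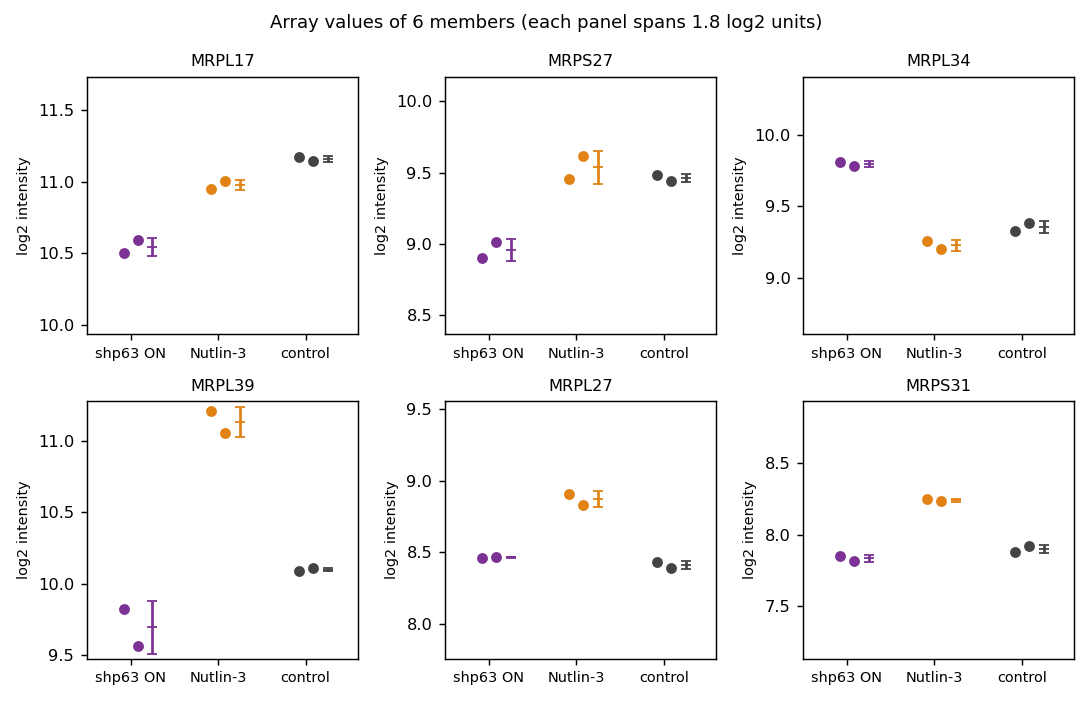
Log2 intensity (vertical axis) on each array of shp63 ON, Nutlin-3 and control (points), with mean and SD of the 2 arrays (bars), for MRPL17, MRPS27, MRPL34, MRPL39, MRPL27 and MRPS31, each panel spanning 1.8 log2 units. MRPL17 and MRPS27 are lowest and MRPL34 is highest in shp63 ON, and MRPL39, MRPL27 and MRPS31 are highest with Nutlin-3.

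With Nutlin-3 few mitochondrial ribosomal protein genes changed. Of the 73, 4 rose and 0 fell, against 9.64% and 8.89% of all genes, and 69 did not pass. At an unadjusted p under 0.05 in limma 7 members were higher and 8 lower, against 2996 and 3054 of all 18404 genes. The members' median was 0.06, and that of all genes was -0.00. Among the 4464 other genes between the members' quartiles of level the median was 0.05, and 16.2% rose and 10.5% fell. The arrays did not overlap for 27 members that were higher with Nutlin-3 and 17 that were lower, against backgrounds of 30.2% and 30.3%. Of the 4464 genes between the members' quartiles 1986 were higher and 1213 lower without overlap, both larger shares than among the 73 members. The split depended on the scaling: with quantile normalization 5 members rose and 5 fell, with cyclic loess 5 rose and 4 fell, and with each array centred on its median 6 rose and 0 fell. Those that fell under quantile normalization were MRPL11, MRPL12, MRPL48, MRPS15 and MRPS2, which had values of -0.16 to -0.25 on the deposited scale. With an intensity trend in limma's variances 8 members fell.

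MRPL39, a mitochondria-specific protein of the large subunit that resembles threonyl-tRNA synthetase, stood apart from every other member with Nutlin-3. Its log2 intensity was 11.21 and 11.06 on the Nutlin-3 arrays, 9.82 and 9.56 on the shp63 ON arrays and 10.09 and 10.11 on the control arrays. The 3 groups did not overlap, in the order shp63 ON, control, Nutlin-3. With Nutlin-3 MRPL39 rose 2.05-fold, by 1.03 (SE 0.10, limma adjusted p = 0.000392), and it was the only member that rose by at least 1.5-fold, which 2.48% of all genes did. The rise lay between 0.96 and 1.11 in 16 alternatives and missed the threshold in 1 of them, the one-way model with no moderation, at an adjusted p of 0.0508. Its fall in shp63 ON missed the threshold in 4 of the 16, among them without the second shp63 ON array (adjusted p = 0.0728), and the shp63 ON arrays differed by 0.26, the widest gap of any member in that group.

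MRPL27, the counterpart of bacterial L27, which reaches towards the peptidyl transferase centre, had 8.91 and 8.83 on the Nutlin-3 arrays, 8.46 and 8.47 on the shp63 ON arrays and 8.43 and 8.39 on the control arrays. The Nutlin-3 arrays alone were high, and MRPL27 rose by 0.46 (SE 0.06, limma adjusted p = 0.00263), a call that held in every alternative except the 1.5-fold minimum. MRPS31, mitochondria-specific and of the small subunit, had 8.25 and 8.23 on the Nutlin-3 arrays, 7.85 and 7.82 on the shp63 ON arrays and 7.88 and 7.92 on the control arrays. It too was high on the Nutlin-3 arrays alone and rose by 0.34 (SE 0.06, limma adjusted p = 0.00814), but not past the threshold without the first control array (0.068).

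MRPL13, the counterpart of bacterial L13, had 6.84 and 6.74 on the Nutlin-3 arrays, 6.24 and 6.30 on the shp63 ON arrays and 6.47 and 6.50 on the control arrays. The groups did not overlap, in the same order as for MRPL39. MRPL13 rose by 0.30 with Nutlin-3 (SE 0.07, limma adjusted p = 0.0206) and fell by 0.22 in shp63 ON (adjusted p = 0.0352). Without the first Nutlin-3 array the rise had an adjusted p of 0.0878, and without the first or second control array 0.121 and 0.0859. The fall missed the threshold in 8 of 16 alternatives.

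Members nearest 0 with Nutlin-3 were MRPL40, MRPL24 and MRPS5, at -0.00, 0.01 and -0.01. MRPL10, which carries the stalk proteins, had the widest replicate gap of any member, 0.59 between Nutlin-3 arrays of 7.64 and 7.05, with shp63 ON arrays of 7.59 and 7.52 and control arrays of 7.19 and 7.27. Its values were 0.33 in shp63 ON (limma adjusted p = 0.159) and 0.11 with Nutlin-3 (0.679), and the value with Nutlin-3 was -0.18 without the first Nutlin-3 array and 0.41, past the threshold, without the second, so its direction depended on the array. In size the members' gaps were otherwise about those of other genes. The median gap was 0.07 in shp63 ON, 0.06 with Nutlin-3 and 0.07 in control, against 0.08, 0.09 and 0.07 over all genes. In sign the members mostly shifted 1 way within a group: the median of replicate 1 minus replicate 2 was 0.05, 0.04 and -0.04. Over all genes it was 0.01, 0.02 and -0.00. Replicate 1 was higher for 51, 48 and 28 of the 73 members.

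The 2 comparisons with control share the control arrays, so their values are given side by side only. MRPL39 and MRPL13 fell in shp63 ON and rose with Nutlin-3, the other 19 members that fell in shp63 ON did not pass with Nutlin-3, nor did the 4 that rose, and 46 members passed in neither. The difference between shp63 ON and Nutlin-3 was tested directly, in cells that also differ in drug and duration. Of the 73 members 30 were lower and 5 higher in shp63 ON than with Nutlin-3, against 24% and 27.5% of all genes (51.5% in either direction), and the median was -0.17. The arrays did not overlap for 48 members that were lower and 11 that were higher, against 35.7% and 41.1% of all genes. By at least 1.5-fold 3 members were lower and 0 higher, against 7.13% and 5.97%. Among the 4464 other genes between the members' quartiles of level 40.4% were lower and 18.3% higher. For lower this is close to the 41.1% of all 73 members, which cover a wider range of level. The arrays of these 4464 genes did not overlap for 2470 that were lower and 1238 that were higher. The members' 48 and 11 of 73 are a larger share for lower and a smaller share for higher. With quantile or cyclic loess normalization 22 members were lower and 10 higher, with medians of -0.06 and -0.07, and with each array centred on its median 38 were lower and 5 higher, with a median of -0.22.

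The largest differences between shp63 ON and Nutlin-3 were MRPL39 at -1.44 (SE 0.10, limma adjusted p = 4.08e-05), MRPS23 at -0.69, MRPL30 at -0.64, MRPS27 at -0.58 and MRPL42 at -0.57. Higher in shp63 ON were MRPL34 at 0.57, MRPL41 at 0.56, MRPL33 at 0.37, MRPS5 at 0.26 and MRPL12 at 0.24. MRPL12 passed here (limma adjusted p = 0.0176) with 9.66 and 9.69 on the shp63 ON arrays against 9.48 and 9.39 on the Nutlin-3 arrays. The members nearest 0 were MRPS34, MRPS11 and MRPS26.

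Other genes of mitochondrial gene expression were read from lists chosen for their roles, beside the backgrounds given above for each comparison. Of 4 measured mitoribosomal proteins with other symbols, PTCD3 fell in shp63 ON by 0.25 and none passed with Nutlin-3. Of 27 genes of ribosome assembly and ribosomal RNA modification 8 fell and 0 rose in shp63 ON, led by RBFA, a small subunit assembly factor (-0.61), FASTKD2, which binds mitochondrial ribosomal RNA (-0.60), and TRMT61B, a methyltransferase of mitochondrial RNA (-0.59). With Nutlin-3 TRMT61B rose by 0.33 and MALSU1, an assembly factor of the large subunit, fell by 0.31.

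Of 16 measured translation factors 1 passed in shp63 ON, RMND1, which fell (-0.34). Their median was -0.10, with 12 of the 16 below 0, close to the members' median of -0.12. With Nutlin-3 GUF1, the back-translocating elongation factor, rose by 0.58, the release factor MTRF1 by 0.42 and the initiation factor MTIF2 by 0.31. Of 19 genes of mitochondrial tRNA charging, NARS2 and FARS2 fell in shp63 ON by 0.79 and 0.39 and QRSL1, of the amidotransferase that makes glutaminyl-tRNA, rose by 0.34. AARS2 and FARS2 rose with Nutlin-3 by 0.49 and 0.26.

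Genes of mitochondrial DNA transcription and RNA processing were mostly lower in shp63 ON: 9 of 16 fell and 2 rose, with a median of -0.36. PNPT1, the polynucleotide phosphorylase, had 8.37 and 8.46 on the shp63 ON arrays, 9.21 and 9.22 on the Nutlin-3 arrays and 9.24 and 9.28 on the control arrays, and fell by 0.85 (SE 0.06, limma adjusted p = 0.000115). TFAM, the packaging and transcription factor of mitochondrial DNA, had 7.82 and 7.95 on the shp63 ON arrays, 8.68 and 8.66 on the Nutlin-3 arrays and 8.65 and 8.68 on the control arrays, and fell by 0.78 (SE 0.07, limma adjusted p = 0.000237). For both genes the shp63 ON arrays alone were low. The helicase TWNK fell by 0.79, whereas POLRMT, the mitochondrial RNA polymerase, rose by 0.22 and MTERF2 by 0.25. With Nutlin-3 TEFM, an elongation factor, TFB2M, a transcription initiation factor, POLG2, a DNA polymerase subunit, and MTERF1 rose, by 0.51, 0.34, 0.30 and 0.29, and 0 fell.

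Of 19 import and folding genes 6 fell in shp63 ON, led by TIMM9 (-0.58), TIMM8A (-0.55) and the chaperonin HSPD1 (-0.53), and none passed with Nutlin-3. Among 9 regulators, MYC had 9.30 and 9.37 on the shp63 ON arrays, 10.96 and 10.89 on the Nutlin-3 arrays and 10.85 and 10.89 on the control arrays. It fell by 1.54 in shp63 ON (SE 0.06, limma adjusted p = 8.34e-06), and its value with Nutlin-3 was 0.05. PPRC1 and GABPA fell in shp63 ON by 0.49 and 0.35. PPARGC1A, the coactivator PGC-1α, had 11.32 and 11.23 on the shp63 ON arrays, 9.55 and 9.67 on the Nutlin-3 arrays and 10.26 and 10.19 on the control arrays. It rose by 1.06 in shp63 ON and fell by 0.61 with Nutlin-3, and GABPA rose by 0.25 with Nutlin-3. Of the 9 regulators 5 did not pass in shp63 ON and 7 did not with Nutlin-3. The part of the regulators in the members' values was not tested.

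The nuclear genes of the respiratory chain and ATP synthase, which work with the products of this ribosome, stood on the other side of 0 in shp63 ON. Of 76 genes 28 rose and 1 fell, with a median of 0.17, against a median of -0.12 for the ribosomal proteins. Of 57 cytoplasmic ribosomal protein genes 37 fell and 2 rose, with a median of -0.26. Over all genes 19.7% rose and 16.5% fell, with a median of 0.04. The median level was 9.60 in the respiratory chain list and 11.84 in the cytoplasmic list, against 9.16 for the members. These 2 lists were not set beside other genes of their own level. With Nutlin-3 the medians were 0.01 and 0.06, and 2 respiratory chain genes rose and 1 fell, as did 1 cytoplasmic ribosomal protein gene in each direction. The differences between lists were not tested.

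**Figure D5:**
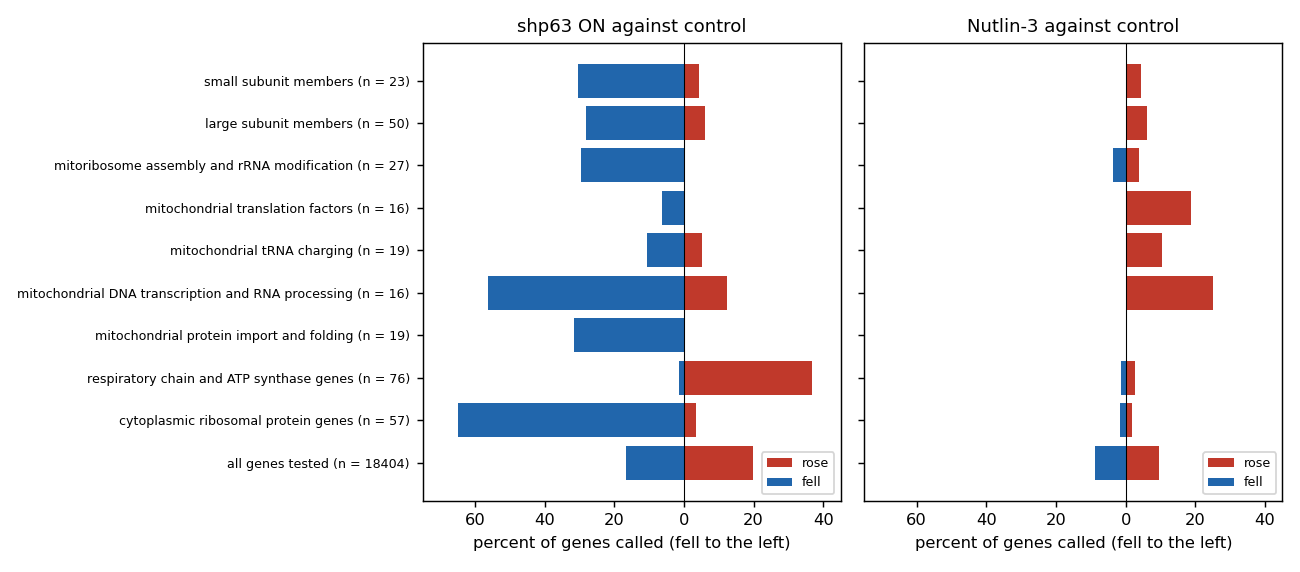
Percent of genes called as risen (to the right) and fallen (to the left) in lists of mitochondrial and ribosomal genes and over all genes tested, for shp63 ON against control (left) and Nutlin-3 against control (right), with the number of genes beside each name. In shp63 ON the cytoplasmic ribosomal proteins have 37 of 57 genes to the left and the respiratory chain list 28 of 76 to the right.

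The 4 known members MRPL51, MRPS6, MRPS24 and MRPS28 lie only on probe sets that name several genes, and were fitted with all probe sets. The probe set of MRPS6 and SLC5A3 had -0.38 in shp63 ON (limma adjusted p = 0.0253) and that of MRPS28 and TPD52 -0.38 (0.0162), which cannot be assigned to 1 gene. Those of MRPL51 with SPTLC1 (-0.11) and of MRPS24 with its readthrough gene (0.12) did not pass, and none of the 4 passed with Nutlin-3. Many mitochondrial ribosomal protein genes have processed pseudogenes, and how far probes bind such copies is not given in the sources used here.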

How the data were processed

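The deposited value table holds 1 log2 intensity per probe set and array (Affymetrix HuGene 1.0 ST). The authors processed the arrays with Partek, per the submitters' processing notes. How they handled background, normalization and summarization is not given in the sources used here, and the log2 scale was read from the range of the deposited values (2.94 to 14.9). No probe-level or detection value was used, so a limit of detection is unknown. Genes were named from the platform annotation: 19158 probe sets name 1 gene, 1388 several and 11775 none, and 19128 matched RefSeq by Entrez ID with 0 symbols changed.

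The probe set with the highest mean stood for each gene. Groups were compared in R 4.3.3 by limma 3.58.1, with its functions lmFit and eBayes (1 fit over 3 groups with 3 residual degrees of freedom before moderation, no covariate, Benjamini-Hochberg adjustment over 18404 genes). The script was tested on simulated data. The genes named with values were the 8 largest rises and falls per comparison with control, those called in both, the 5 largest per direction between shp63 ON and Nutlin-3, those nearest 0, those with several probe sets or the widest replicate gaps, and up to 3 per direction in each pathway list. PTPRC and PECAM1, MTERF1, MRPS33, MRPL10 and the members that fell under quantile normalization were named after their values were seen. The members and all lists were chosen with earlier results of these data known. The design text names a one-way model per gene, which was run as an alternative. Other alternatives were 3 scalings, a variance trend, probe set and level filters, a 2-group fit, a replicate block, leaving out each array and a 1.5-fold minimum. Promoters came from RefSeq (GRCh38.p14), and the first listed start stood for a gene.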

Additional observations from a re-analysis of the deposited data

How the results depend on the processing

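In shp63 ON against control, leaving out 1 array gave 1 to 5 rises, 6 to 20 falls and a median of -0.16 to -0.09. With Nutlin-3 it gave 2 to 5 rises, 0 falls and a median of 0.02 to 0.06, and between shp63 ON and Nutlin-3 it gave 3 to 6 rises, 19 to 28 falls and a median of -0.18 to -0.12. The one-way model with no moderation gave, after Benjamini-Hochberg adjustment, 1 rise and 9 falls in shp63 ON, 2 rises and 1 fall with Nutlin-3, and 19 falls between the treatments. At its unadjusted p there were 7 rises and 8 falls with Nutlin-3. The 1.5-fold minimum left 0 rises and 1 fall in shp63 ON, 1 rise with Nutlin-3, and 0 rises and 3 falls between the treatments. Falls with Nutlin-3 numbered 5 with quantile normalization, 4 with cyclic loess, 8 with a variance trend and 4 over genes with a mean of 6 or more, and the causes were not tested. Shares of all genes are given only for the 1.5-fold minimum and for shp63 ON without the second control array. For the other alternatives the counts alone do not tell whether the members differed from all genes. Quantile and cyclic loess normalization moved the medians to -0.056 and -0.068 in shp63 ON and to -0.055 and -0.067 between the treatments, with 10 rises each between the treatments. No member called in a comparison changed sign there in those of the 16 alternatives at the same adjusted p threshold that tested it. Among named members that did not pass, MRPL10 with Nutlin-3 ranged from -0.18 to 0.41, and those nearest 0 changed sign in some alternatives, such as MRPS12 in shp63 ON (-0.12 to 0.14), with MRPL12 in shp63 ON an exception.

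The deviations of same-numbered arrays from their group means were little correlated over all genes. The values were -0.02 (shp63 ON and control), 0.11 (shp63 ON and Nutlin-3) and -0.06 (Nutlin-3 and control), over 2 pairs each. With 2 arrays a group this cannot show whether the numbers pair the arrays. The labels do not say so either, and the main fit did not pair them. With the replicate block 4 members rose and 21 fell in shp63 ON, 4 rose and 0 fell with Nutlin-3, and 5 rose and 28 fell between the treatments.

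Precision is limited by 2 arrays a group. No array carried doxycycline without the hairpin, the level of p63 was not analysed here, and an mRNA level says nothing of assembled ribosomes or of mitochondrial translation.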

Other observations

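Many mitochondrial ribosomal protein genes start close to a gene read in the opposite direction. By the RefSeq starts, 27 members had such a neighbour on the opposite strand within 1000 bases, and for 21 of them the neighbour was measured. Starts before and after the member's own start were counted alike, so a shared promoter is not shown for each pair. In shp63 ON 8 of the 21 members fell, and 1 of their neighbours fell as well: PTCD2, beside MRPS27, at -0.26 (limma adjusted p = 0.0323). The other 7 members that fell had neighbours that did not pass. Beside members that did not pass, 4 neighbours fell (TCP1, HIRA, EME1 and SKA3) and EME2 rose. Over all genes 16.5% fell and 19.7% rose, and with so few pairs nothing is read from these counts. MRPL57 had -0.13 in shp63 ON and did not pass, while SKA3, a kinetochore gene that starts 106 bases away, had 6.66 and 6.57 on the shp63 ON arrays, 7.67 and 7.72 on the Nutlin-3 arrays and 8.74 and 8.90 on the control arrays. SKA3 fell by 2.21 in shp63 ON and by 1.13 with Nutlin-3 (limma adjusted p = 6.46e-06 and 8.24e-05).

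With Nutlin-3 MRPL27 rose by 0.46 while EME1, an endonuclease gene that starts 45 bases from it, fell by 0.37 (limma adjusted p = 0.00616), with 5.95 and 5.97 on the Nutlin-3 arrays against 6.34 and 6.32 on the control arrays. MRPL14 had 0.07 with Nutlin-3 and did not pass, and its neighbour TMEM63B rose by 0.81 (limma adjusted p = 0.000202). MRPL46 and MRPS11 start 320 bases from each other, and neither passed in either comparison with control. These pairs were named after their values were seen.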
